A study of Homo sapiens with 4 samples.

Results

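The genes of the lipid droplet coat and of the nuclear receptor PPARG were followed in 4 RNA sequencing libraries of the cell line SUM159, a model of triple-negative breast cancer (TNBC). The group holds 10 of the 60279 genes counted: the 5 perilipins (PLIN1, PLIN2, PLIN3, PLIN4 and PLIN5), CIDEC, CIDEB, PPARG, the lipase gene PNPLA2 and its inhibitor G0S2. The list was selected on measured values, because PLIN4 and CIDEC were already known to be low after treatment in these same libraries, and the other genes were set beside them by family or function. What follows is therefore a description of the members and carries no test. One library each was made from untreated cells, from cells given palbociclib, from cells given indisulam and from cells given both drugs. Palbociclib inhibits the kinases CDK4 and CDK6, and indisulam leads to degradation of the splicing factor RBM39. The sample labels give 0.5 µM palbociclib, 2 µM indisulam and 10 days, whereas the text on the series gives 2 µM, 3 µM and 16 h with technical duplicates, and the dose and the duration are left unsettled here. Every library, the untreated one included, came from cells of this 1 line, grown in medium with serum, insulin and hydrocortisone. There were no replicates, so no difference between libraries has a replicate check.

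Lipid droplets store triglycerides and cholesterol esters in a core that is covered by a phospholipid layer and by coat proteins. The perilipins coat droplets and limit the access of lipases, and the CIDE proteins let a large droplet take up the contents of a smaller one. PLIN1, PLIN4 and CIDEC are best known from adipocytes, where the nuclear receptor PPARG drives their transcription, whereas PLIN2 and PLIN3 are found in many cell types. In breast carcinoma cells droplets take up surplus fatty acids and release them by lipolysis.

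Between 12555908 and 16712174 reads per library fell in genes, and levels are given as CPM, the count per 1000000 reads of that total. The floor of 3 counts corresponded to between 0.180 and 0.239 CPM. Ratios were taken on scaled counts plus a pseudocount of 1, and brackets give 95% intervals from counting error only. A gene was tested where its mean over the 4 libraries was at least 1 CPM, which 14269 genes and 6 of the 10 members reached. It was called lower or higher where the ratio was at least 2-fold and the interval excluded equality. The labelled cell type was checked with marker genes. VIM was between 2643 and 4598 CPM, CD44 between 706 and 883, KRT8 between 416 and 575 and KRT18 between 162 and 249, while KRT5 was between 1.26 and 4.57 CPM and EPCAM between 0.394 and 1.12. ESR1 was at most 1.11 CPM and PGR at most 0.209 CPM. ERBB2 was between 110 and 143 CPM. Of the 6 adipocyte markers, CIDEA had 0 reads in every library, LEP at most 1 read and ADIPOQ at most 2 reads. The sum of the 6 markers without PLIN1 was 4.94 CPM untreated, 4.65 with palbociclib, 3.53 with indisulam and 8.22 with the combination. Within that sum AQP7 had 11, 9, 4 and 0 reads and FABP4 48, 50, 55 and 118 reads, in the same order. The leukocyte gene PTPRC was between 11.1 and 17.5 CPM. The endothelial gene PECAM1 was 15.2 CPM untreated, 40.9 with palbociclib, 17.5 with indisulam and 20.4 with the combination. CDH5, the other endothelial marker, had 5, 23, 0 and 0 reads in the same order. PLIN4 and CIDEC were lowest with the combination. In that library CDH5 and AQP7 had 0 reads and PTPRC was lowest by a small margin, whereas PECAM1 was highest with palbociclib. The part of other cells in the values of the members was not tested. In bulk RNA, fewer cells that carry a transcript and less of that transcript per cell cannot be told apart.

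PLIN4 and CIDEC were lower in every treated library, and both were lowest with the combination. PLIN4 encodes a coat protein with a long amphipathic repeat that binds small, newly formed droplets. It was counted with 650 reads (51.8 CPM) in untreated cells, 335 reads (26.4 CPM) with palbociclib, 9.51 CPM with indisulam and 26 reads (1.81 CPM) with the combination. The counting intervals of the 4 levels did not overlap, from 47.9 to 55.9 CPM untreated down to 1.18 to 2.65 CPM with both drugs. For PLIN4, palbociclib against untreated gave a log2 ratio of -0.97 (-1.16 to -0.78), indisulam -2.44 (-2.68 to -2.19) and the combination -4.78 (-5.33 to -4.24). The last of these is a 27.5-fold lower level, while palbociclib alone stopped just short of a call.

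CIDEC encodes the CIDE protein (FSP27) that enlarges droplets. It was counted with 1270 reads (101.1 CPM) in untreated cells, 154 reads (12.1 CPM) with palbociclib, 101 reads (6.04 CPM) with indisulam and 27 reads (1.88 CPM) with the combination. Each single drug already left CIDEC at a small part of its untreated level, which sets it apart from PLIN4 under palbociclib. Relative to untreated cells, palbociclib gave a log2 ratio of -3.05 (-3.29 to -2.81), indisulam one of -4.05 (-4.34 to -3.76) and the combination one of -5.70 (-6.23 to -5.17), or 8.29-fold, 16.6-fold and 51.9-fold lower. With both drugs CIDEC and PLIN4 stood at almost the same number of reads, from different untreated levels.

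**Figure D1:**
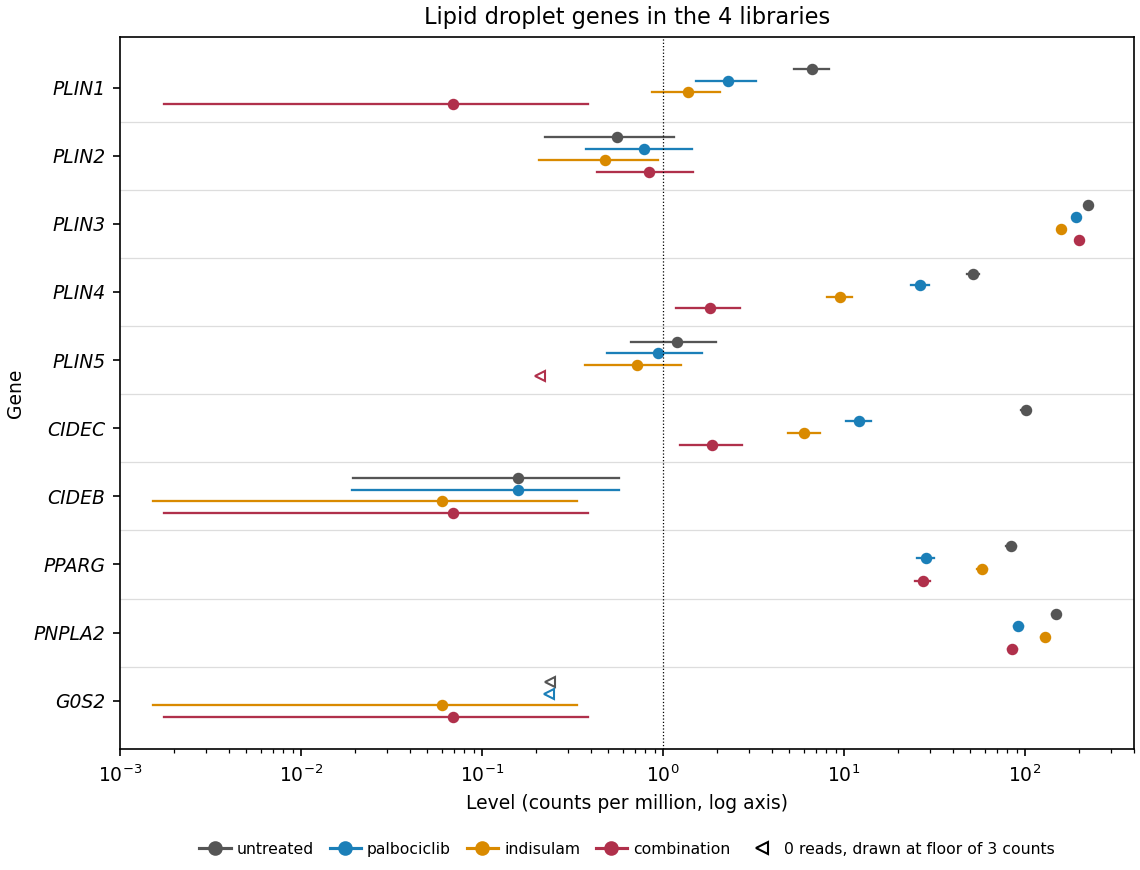
Level of each of the 10 genes (vertical axis) in the 4 libraries, in CPM on a log axis; points are single libraries, bars are 95% Poisson counting intervals, open triangles stand for 0 reads and are drawn at the floor of 3 counts, and the dotted line is 1 CPM. PLIN4 steps down from 51.8 to 1.81 CPM and CIDEC from 101.1 to 1.88 CPM, whereas PLIN3 stays between 157.7 and 224.7 CPM.

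Set among all tested genes, these were extreme ratios. In the comparison of combination and untreated cells, CIDEC had the 6th lowest log2 ratio of 14269 genes, PLIN1 the 8th and PLIN4 the 13th, which describes how the members were chosen as much as what they did. Among the 6036 genes with a mean between 20 and 100 CPM, CIDEC ranked 2nd from the bottom in each of the 3 comparisons with untreated cells, and PLIN4 had the lowest ratio of combination to indisulam. The spread of a log2 ratio between libraries could be bounded from the layout, as explained with the processing, at 0.26 for genes of that level.

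**Figure D2:**
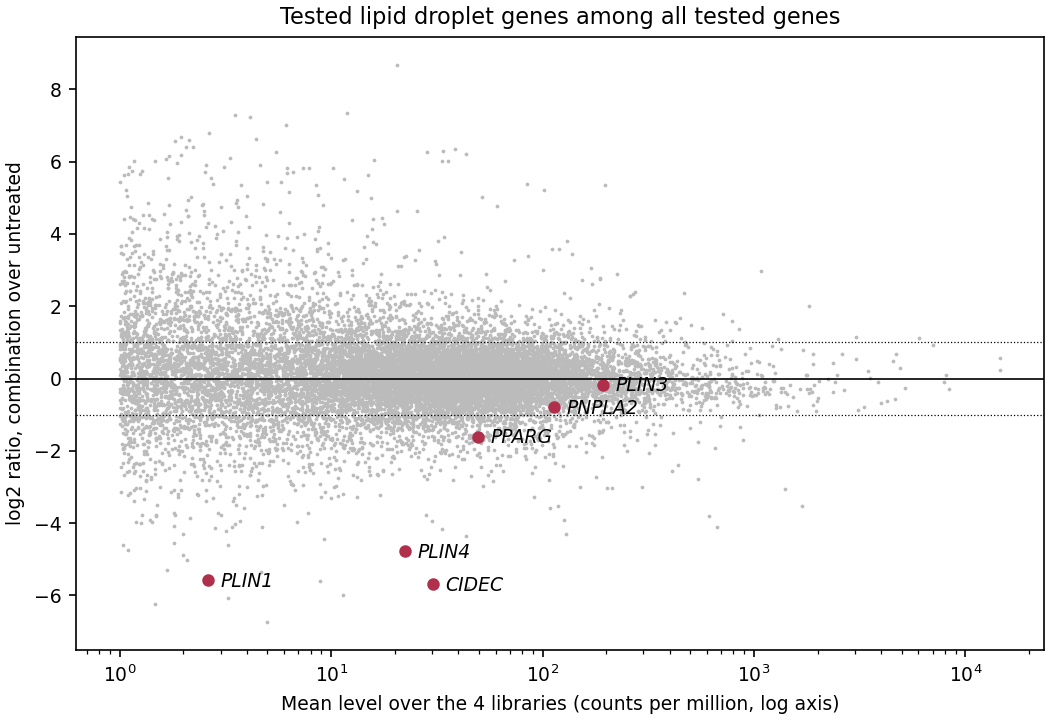
Log2 ratio of combination to untreated (vertical axis) against the mean level over the 4 libraries in CPM (horizontal log axis); grey points are the 14269 tested genes, red points the 6 tested members, and dotted lines mark 2-fold. CIDEC (-5.70) and PLIN4 (-4.78) lie at the lower edge of the cloud, PPARG (-1.62) within its lower part and PLIN3 (-0.17) at its middle.

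PLIN4 (chr19:4502192-4518486) and PLIN5 (chr19:4522531-4535224) are neighbours on the minus strand of GRCh38, with PLIN3 (chr19:4838341-4867694) further along the same strand, while CIDEC (chr3:9866711-9880255, minus strand) and PPARG (chr3:12287368-12434356, plus strand) are both on chromosome 3. PLIN1 (chr15:89664367-89679427) lies elsewhere. The promoters of CIDEC, PLIN1 and PLIN4, the coat genes called lower with the combination, are shown beside that of PLIN3, which was not called. Each line gives the 250 bases before a RefSeq start site on GRCh38.p14, 5′ to 3′ on the strand of the gene. Capitals mark matches on either strand to AGGNCA, the unit that nuclear receptors such as PPARG bind in pairs, or to TCACNCCAC, a sequence bound by the SREBP factors of lipid synthesis. The windows are PLIN4 at chr19:4518487-4518736, CIDEC at an upstream start at chr3:9880254-9880503 and at a downstream start at chr3:9878813-9879062, PLIN1 at chr15:89679368-89679617 and PLIN3 at chr19:4867668-4867917, all on the minus strand.
PLIN4: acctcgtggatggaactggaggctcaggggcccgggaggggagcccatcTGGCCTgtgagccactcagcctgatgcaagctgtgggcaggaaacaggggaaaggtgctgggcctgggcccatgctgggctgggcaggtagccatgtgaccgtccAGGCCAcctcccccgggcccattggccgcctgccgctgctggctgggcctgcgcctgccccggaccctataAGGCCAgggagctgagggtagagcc
CIDEC, upstream start: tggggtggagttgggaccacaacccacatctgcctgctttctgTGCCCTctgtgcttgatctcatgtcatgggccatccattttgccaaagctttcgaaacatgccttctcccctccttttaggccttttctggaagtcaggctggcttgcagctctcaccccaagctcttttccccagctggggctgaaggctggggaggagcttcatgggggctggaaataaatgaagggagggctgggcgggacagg
CIDEC, downstream start: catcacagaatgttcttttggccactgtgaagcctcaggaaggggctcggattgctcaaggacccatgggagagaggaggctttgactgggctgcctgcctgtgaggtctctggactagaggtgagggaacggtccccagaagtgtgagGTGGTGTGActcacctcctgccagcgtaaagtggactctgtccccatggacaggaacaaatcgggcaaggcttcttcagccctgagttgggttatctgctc
PLIN1: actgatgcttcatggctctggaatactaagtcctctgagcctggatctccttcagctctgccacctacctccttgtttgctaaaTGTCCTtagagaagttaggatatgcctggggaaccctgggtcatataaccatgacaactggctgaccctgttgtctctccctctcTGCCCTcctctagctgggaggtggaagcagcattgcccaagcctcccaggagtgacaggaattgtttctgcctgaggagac
PLIN3: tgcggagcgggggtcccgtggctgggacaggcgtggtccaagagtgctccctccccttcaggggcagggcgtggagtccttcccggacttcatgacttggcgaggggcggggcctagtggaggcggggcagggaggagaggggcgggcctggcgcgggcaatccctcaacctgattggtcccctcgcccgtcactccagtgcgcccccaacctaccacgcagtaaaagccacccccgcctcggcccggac
The PLIN4 window holds 3 AGGNCA units, the PLIN1 window holds 2 and the upstream CIDEC window holds 1. The downstream CIDEC window and the PLIN3 window hold none. Among promoters not shown, the unit also stood in windows of PNPLA2, which was not called, and of PPARG, PLIN5, CIDEB and G0S2. It was absent from that of PLIN2. This unit is common, with a match in 47.3% of the 250-base windows of the 35116 human promoters in the table. A pair of these units in the same orientation with 1 base between, the form bound by PPARG with RXR, was found in 0.268% of those windows and in none of the 17 promoters of the 10 members. A spaced palindrome of GNACA and TGTNC with 3 bases between, bound by the glucocorticoid receptor, was found in 0.327% of windows and again in no promoter of a member. The SREBP sequence was present in the downstream CIDEC window at positions -101 to -93, with the start base counted as 0, and in the PNPLA2 promoter at -153 to -145, against 0.883% of all windows. These are matches of letters in short windows, and say nothing of binding in these cells.

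PLIN1 and PLIN5 had fewer reads than PLIN4. PLIN1, the perilipin that guards the large droplet of fat cells, was counted with 84 reads (6.69 CPM) in untreated cells, 29 reads (2.29 CPM) with palbociclib, 23 reads (1.38 CPM) with indisulam and 1 read (0.0696 CPM) with the combination. Its order was that of PLIN4, at a much lower level. Most of its mean of 2.61 CPM, on which it passed the filter, came from the untreated level. Relative to untreated cells, palbociclib gave a log2 ratio of -1.52 (-2.11 to -0.93) and indisulam one of -2.22 (-2.86 to -1.59). With 1 read left, the combination level was 96.1-fold lower than untreated with an exact interval of 16.8-fold to 3839-fold, so the size of that difference is poorly fixed. On scaled counts with the pseudocount its log2 ratio was -5.59, which became -4.05 with a pseudocount of 5. PLIN5, which couples droplets to mitochondria in oxidative tissue, had 15 reads untreated, 12 with palbociclib, 12 with indisulam and 0 with the combination. With its combination level set at the floor of 3 counts, PLIN5 was 5.72-fold lower than untreated. On the same basis it was 4.53-fold lower than palbociclib and 3.44-fold lower than indisulam. These values leave out counting error. The exact intervals allowed smaller differences, down to 4.10-fold, 3.14-fold and 2.39-fold lower in the same order. PLIN5 was not tested because its mean was under 1 CPM, and part of its exons overlaps another annotated gene on the same strand over 1047 bases, so its reads are uncertain.

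PLIN2, the perilipin that most cell types place on droplets, was hardly counted in SUM159 cells. It had 7 reads untreated, 10 with palbociclib, 8 with indisulam and 12 with the combination, between 0.479 and 0.836 CPM. Its exact log2 ratio of combination to untreated was 0.58 (-0.88 to 2.17), an interval that holds both a lower and a higher level. CIDEB, the CIDE protein of liver and intestine, had 2, 2, 1 and 1 reads, at or under the floor in every library, and no ratio is given. Its exons overlap LTB4R2 over 1276 bases and NOP9 over 1577 bases on the opposite strand. The strand setting of the counting is not given, so the reads of CIDEB are uncertain. Exons also overlap an opposite-strand gene in PLIN3 (502 bases), PNPLA2 (401 bases) and PLIN4 (17 bases), so the same limit applies there.

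PLIN3 was the most abundant member in every library, and of the tested members it had the smallest difference between the combination and untreated cells. PLIN3 (also TIP47) moves from the cytosol to droplets as they form. It was counted with 2821 reads (224.7 CPM) untreated, 2425 reads (191.1 CPM) with palbociclib, 2635 reads (157.7 CPM) with indisulam and 2859 reads (199.1 CPM) with the combination. Relative to untreated cells, palbociclib gave a log2 ratio of -0.23 (-0.31 to -0.16), indisulam one of -0.51 (-0.59 to -0.43) and the combination one of -0.17 (-0.25 to -0.10). The first and the last of these were smaller than the bound of 0.28 on the spread between libraries for genes at 100 CPM and over. Against palbociclib the combination ratio was 0.06 (-0.02 to 0.14), and its sign turned to -0.04 with TMM factors and -0.02 with median-of-ratios factors.

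The makeup of the perilipin reads changed accordingly. PLIN3 took 78.9% (exact binomial interval 77.5 to 80.2) of the reads of the 5 perilipins in untreated cells. This share was 86.3% (84.9 to 87.5) after palbociclib, 92.9% (91.9 to 93.8) after indisulam and 98.7% (98.2 to 99.0) after both drugs. PLIN4 took 18.2%, 11.9%, 5.60% and 0.897% in the same order. The level of PLIN3 itself was not higher than untreated in any treated library, so its larger share went with fewer reads of PLIN4 and PLIN1. Per length of the canonical transcript, PLIN3 took 90.1% of the perilipin signal in untreated cells and 99.2% with the combination. On the RPKM scale (CPM per kilobase of transcript) the 5 highest levels in untreated cells were those of PLIN3 (100.7), CIDEC (77.5), PNPLA2 (61.3), PPARG (47.4) and PLIN4 (7.96). With the combination they were PLIN3 (89.2), PNPLA2 (35.3), PPARG (15.3), CIDEC (1.44) and PLIN2 (0.441), with PLIN4 (0.278) next. CIDEC thus went from the 2nd to the 4th place per length. The counting intervals of neighbours in these orders did not overlap, except those of PLIN2 and PLIN4 with the combination. The orders also rest on the length used. The canonical transcript has 1774 bases for PPARG and 6502 for PLIN4, whereas all annotated exons cover 11981 and 6505 bases. Orders by that other length were not computed. In PLIN4, 4.09% of all windows of 65 bases in the canonical transcript occur more than once within it, against 0% in the other members, and reads that aligned to several places were not counted, which can understate its level relative to the others.

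PPARG itself was lower with palbociclib and with the combination, and much less so with indisulam alone. PPARG is the nuclear receptor that directs fat cell formation and lipid storage, as a partner of RXR. It was counted with 1056 reads (84.1 CPM) untreated, 359 reads (28.3 CPM) with palbociclib, 971 reads (58.1 CPM) with indisulam and 391 reads (27.2 CPM) with the combination. The 2 libraries with palbociclib held nearly the same level, and the indisulam library stood between them and untreated. Relative to untreated cells, palbociclib gave a log2 ratio of -1.57 (-1.74 to -1.40), indisulam one of -0.53 (-0.66 to -0.41) and the combination one of -1.62 (-1.79 to -1.46). The combination and palbociclib did not differ beyond counting error, at -0.05 (-0.26 to 0.15), whereas the combination was lower than indisulam by a log2 ratio of -1.09 (-1.26 to -0.92), just inside the call. The order of PPARG over the libraries therefore differed from that of PLIN4 and CIDEC, which were both lower with indisulam than with palbociclib.

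**Figure D3:**
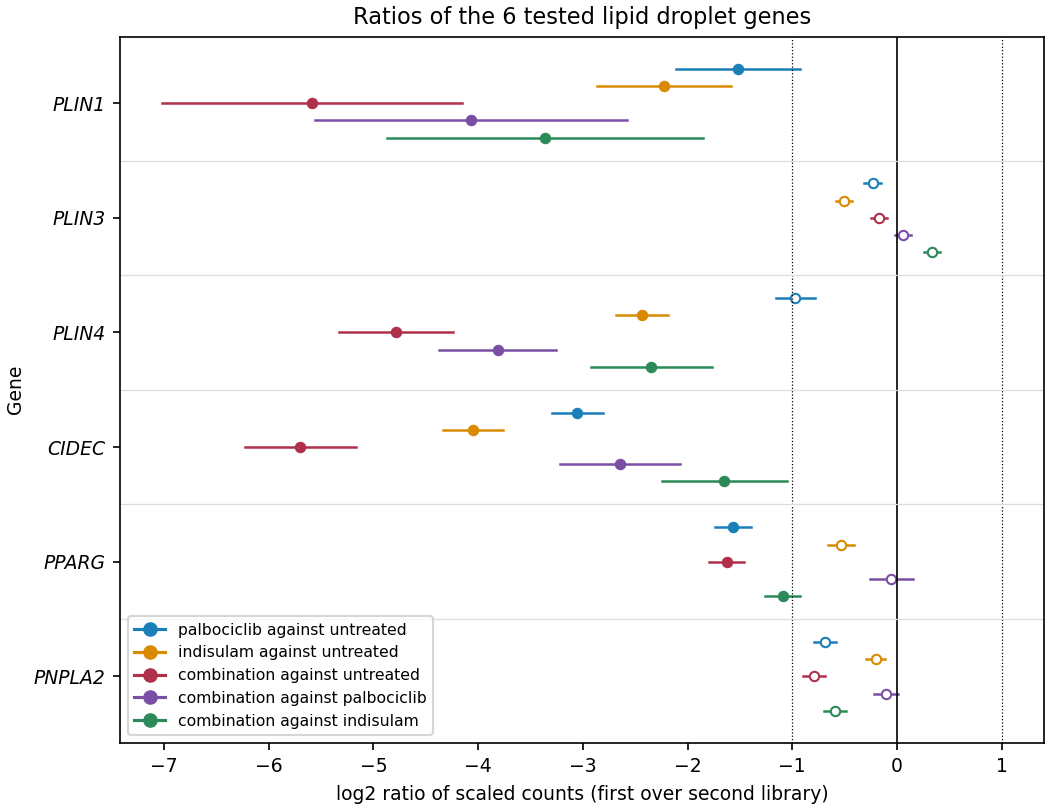
Log2 ratios (horizontal axis) of the 6 tested members in 5 comparisons; points are ratios of single libraries, filled where called and open where not, bars are 95% counting intervals, and dotted lines mark 2-fold. CIDEC and PLIN1 have filled points in all 5 comparisons, PLIN4 in all but palbociclib against untreated (-0.97), PPARG in the 3 that add palbociclib, with or without indisulam, and PLIN3 and PNPLA2 in none.

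The lipase gene was lower by less than 2-fold in every treated library. PNPLA2 encodes adipose triglyceride lipase (ATGL), which starts the breakdown of stored triglyceride. It was counted with 1860 reads (148.1 CPM) untreated, 1167 reads (92.0 CPM) with palbociclib, 2150 reads (128.6 CPM) with indisulam and 1225 reads (85.3 CPM) with the combination. Like PPARG, it had its lower levels in the 2 libraries with palbociclib. Relative to untreated cells, palbociclib gave a log2 ratio of -0.69 (-0.79 to -0.58), indisulam one of -0.20 (-0.29 to -0.11) and the combination one of -0.80 (-0.90 to -0.69). G0S2, the inhibitor of ATGL, had 0 reads untreated and with palbociclib and 1 read each with indisulam and the combination. ABHD5 (CGI-58) is the coactivator of ATGL that PLIN1 holds back on the droplet, and it went the other way. It was at 19.9 CPM untreated, 33.9 with palbociclib, 41.7 with indisulam and 79.0 with the combination, a log2 ratio of 1.99 (1.79 to 2.18) of combination to untreated. For every 100 reads of PNPLA2 there were 13.4 reads of ABHD5 in untreated cells, 36.8 with palbociclib, 32.4 with indisulam and 92.7 with the combination. LIPE, hormone-sensitive lipase, was low, at 3.42 CPM untreated and 2.30 with the combination. HILPDA, another inhibitor of ATGL, was at 4.46 CPM untreated and 8.29 with the combination, a log2 ratio of 0.88 that was not called.

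Counted by comparison, no member was called higher in any of the 5. Palbociclib against untreated gave 3 members lower (PLIN1, CIDEC and PPARG), where 4.95% of all tested genes were called lower and 5.96% higher. Indisulam against untreated gave 3 lower (PLIN1, PLIN4 and CIDEC), beside 6.71% of tested genes lower and 8.44% higher. The combination against untreated gave 4 lower (PLIN1, PLIN4, CIDEC and PPARG), beside 10.6% lower and 13% higher. The combination against palbociclib gave 3 lower (PLIN1, PLIN4 and CIDEC), beside 7.4% lower and 9.62% higher, and the combination against indisulam gave 4 lower (PLIN1, PLIN4, CIDEC and PPARG), beside 3.19% lower and 5.09% higher. Since PLIN4 and CIDEC were picked for their low values, and PLIN1 passed the filter mostly on its untreated level, nothing is read from these counts beside the background. The comparisons share libraries, 3 of them the untreated one, so the repeated calls are not independent.

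The layout also allowed the combination to be set against the added log2 ratios of both single drugs, and here PLIN4 and CIDEC parted. For PLIN4 the single drugs summed to -3.41 and the combination was at -4.78, a departure of -1.38 (-1.99 to -0.77). For CIDEC the single drugs summed to -7.10 and the combination was at -5.70, a departure of 1.40 (0.76 to 2.04). The robust spread of this quantity over genes of that level was 0.37. Both genes were picked for low values in these same libraries, so nothing about drug interaction is read from their departures. With the combination CIDEC was at 27 reads and PLIN4 at 26. Whether a lower limit of the counts shaped the departure of either gene was not tested. PLIN1 departed by -1.84 (-3.46 to -0.22), on 1 read, and by -0.61 with a pseudocount of 5. PLIN3 departed by 0.57 (0.46 to 0.68) and PPARG by 0.48 (0.24 to 0.72). The robust spread over genes of like level was 0.88 for PLIN1, 0.40 for PLIN3 and 0.37 for PPARG. Their departures were thus 2.09, 1.44 and 1.29 times the spread, in that order. PNPLA2 was near the sum, at 0.10 (-0.05 to 0.24).

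**Figure D4:**
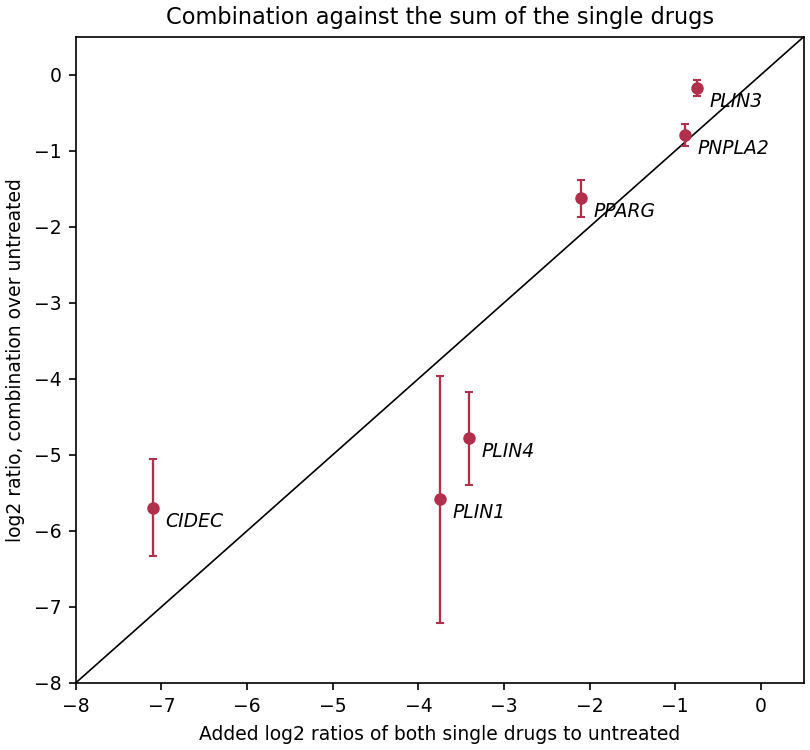
Log2 ratio of combination to untreated (vertical axis) against the added log2 ratios of both single drugs (horizontal axis) for the 6 tested members; the line marks equality, points are single-library ratios, and bars are 95% counting intervals of the distance from the line. PLIN4 lies 1.38 below the line and CIDEC 1.40 above it, while PNPLA2 lies on it.

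Other genes of droplet biology and of the regulators were taken from 7 lists with 62 genes, of which 54 were tested. On the lipolysis list ABHD5 was called higher in 3 comparisons, of which indisulam against untreated (1.06) was lost under the other scaling factors tried, at 0.99 with TMM, and no gene was called lower in any. MGLL, which cleaves monoglycerides, was called higher with palbociclib against untreated, at 65.9 CPM untreated and 136.9 with palbociclib (log2 ratio 1.05). The list median of combination to untreated was 0.12, beside 0.05 for all tested genes, of which 10.6% were called lower and 13% higher. Among the 9 tested genes of droplet assembly and other droplet proteins, 2 were called lower with the combination against untreated and none higher. Over all tested genes 10.6% were called lower and 13% higher there. One of the 2 was METTL7A, a droplet-associated methyltransferase, at 183.2 CPM untreated, 107.7 with palbociclib, 43.6 with indisulam and 33.6 with the combination. The other was BSCL2 (seipin), which forms droplets at the endoplasmic reticulum, at 3.50, 1.73, 1.44 and 1.53 CPM. BSCL2 shares exons with a read-through gene and METTL7A overlaps an unnamed gene on the same strand, so their reads are uncertain. On this list 2 genes were also lower with indisulam against untreated and 2 with the combination against palbociclib. The shares of all tested genes called lower were 6.71% and 7.4%. None of the list was called with palbociclib against untreated, beside 4.95% lower and 5.96% higher. With the combination against indisulam there was again no call, beside 3.19% and 5.09%.

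Of the 11 genes of neutral lipid synthesis, 2 were called lower and 1 higher with the combination against untreated, and the list median was -0.29. GPAM and GPAT3 make the first acyl transfer to glycerol phosphate. GPAM was at 203.0 CPM untreated, 137.8 with palbociclib, 90.0 with indisulam and 86.5 with the combination, and GPAT3 at 24.5, 6.54, 19.3 and 11.0 CPM. DGAT2, which makes the last step to triglyceride, was higher, at 4.54 CPM untreated, 8.82 with palbociclib, 11.4 with indisulam and 15.0 with the combination. DGAT1, also on this list, went the other way, at 28.4 CPM untreated and 14.2 with the combination (log2 ratio -0.99). DGAT1 was not called, but was lower there with TMM (-1.09), upper-quartile (-1.03) and median-of-ratios factors (-1.07). Beside 10.6% of all tested genes lower and 13% higher, nothing is read from these counts.

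The list of other PPAR receptors and partners gave no call in any comparison among 7 tested, with a median of -0.79 for combination to untreated. Of all tested genes, 4.95% were called lower and 5.96% higher with palbociclib against untreated, and 6.71% and 8.44% with indisulam. For the combination the shares were 7.4% and 9.62% against palbociclib, and 3.19% and 5.09% against indisulam. Over all tested genes 10.6% were called lower and 13% higher in the comparison of combination and untreated cells. PPARGC1A, a coactivator, was however called lower there with TMM (-1.04) and median-of-ratios factors (-1.02). PPARA, the receptor of fatty acid oxidation, was at 53.0 CPM untreated and 30.6 with the combination (log2 ratio -0.79), PPARD at 64.0 and 50.9 CPM (-0.33), and RXRA, the shared partner, at 141.8 and 82.2 CPM (-0.79). Genes known as PPAR targets in fat or muscle split in direction. With the combination against untreated, 2 of the 6 tested were called lower and 2 higher, beside 10.6% and 13% of all tested genes. PDK4, a brake on glucose oxidation, was lower in all 5 comparisons, at 22.6 CPM untreated, 5.67 with palbociclib, 9.57 with indisulam and 2.23 with the combination. CD36, a fatty acid transporter, was higher with palbociclib and lower with indisulam, at 11.9 CPM untreated, 34.0 with palbociclib, 1.97 with indisulam and 4.25 with the combination. FABP4, a fatty acid carrier, was at 3.82, 3.94, 3.29 and 8.22 CPM, and ANGPTL4, a secreted lipase inhibitor, at 2.55, 2.92, 3.53 and 13.1 CPM, so both were highest in the library where PLIN4 and CIDEC were lowest. The remaining 4 listed targets (LPL, ADIPOQ, AQP7 and PCK1) were under the filter. The call of FABP4 was lost with TMM factors for combination to untreated, at a log2 ratio of 0.998, and under each other scaling for combination to palbociclib.

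The SREBP-linked genes, which feed fatty acids and cholesterol to droplets, had the lowest median of the 7 lists for combination to untreated, at -2.41. Of 7 tested, 6 were called lower, beside 10.6% of all tested genes. HMGCS1 was not called in any comparison, at 56.6 CPM untreated and 53.9 with the combination. In the other comparisons 5 genes of the list were lower with palbociclib and 4 with indisulam against untreated. Against palbociclib the combination gave 1 lower, and against indisulam 4. The shares of all tested genes called lower were 4.95%, 6.71%, 7.4% and 3.19% in that order. With TMM factors, SREBF2 (-1.01) and ACACA (-1.04) were also called lower with the combination against palbociclib, and ACACA (-1.02) with median-of-ratios factors. INSIG1 was also called lower with indisulam against untreated, at -1.05 with TMM, upper-quartile and median-of-ratios factors alike. SREBF1 was at 432.5 CPM untreated, 167.0 with palbociclib, 202.5 with indisulam and 53.4 with the combination, and SCD, FASN, ACACA, INSIG1 and SREBF2 were the other genes called. Because the medium held hydrocortisone, a glucocorticoid, genes induced by that hormone were listed too. Of 7 tested, 2 were called lower and 1 higher with the combination against untreated, beside 10.6% and 13% of all tested genes. The list median was -0.77. TSC22D3 (GILZ) was lower in all 5 comparisons, at 1618 CPM untreated, 334.5 with palbociclib, 385.8 with indisulam and 116.1 with the combination, and FKBP5 was at 1186 CPM, 705.0, 426.3 and 310.5. The receptor gene NR3C1 was between 77.0 and 97.7 CPM and was not called.

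**Figure D5:**
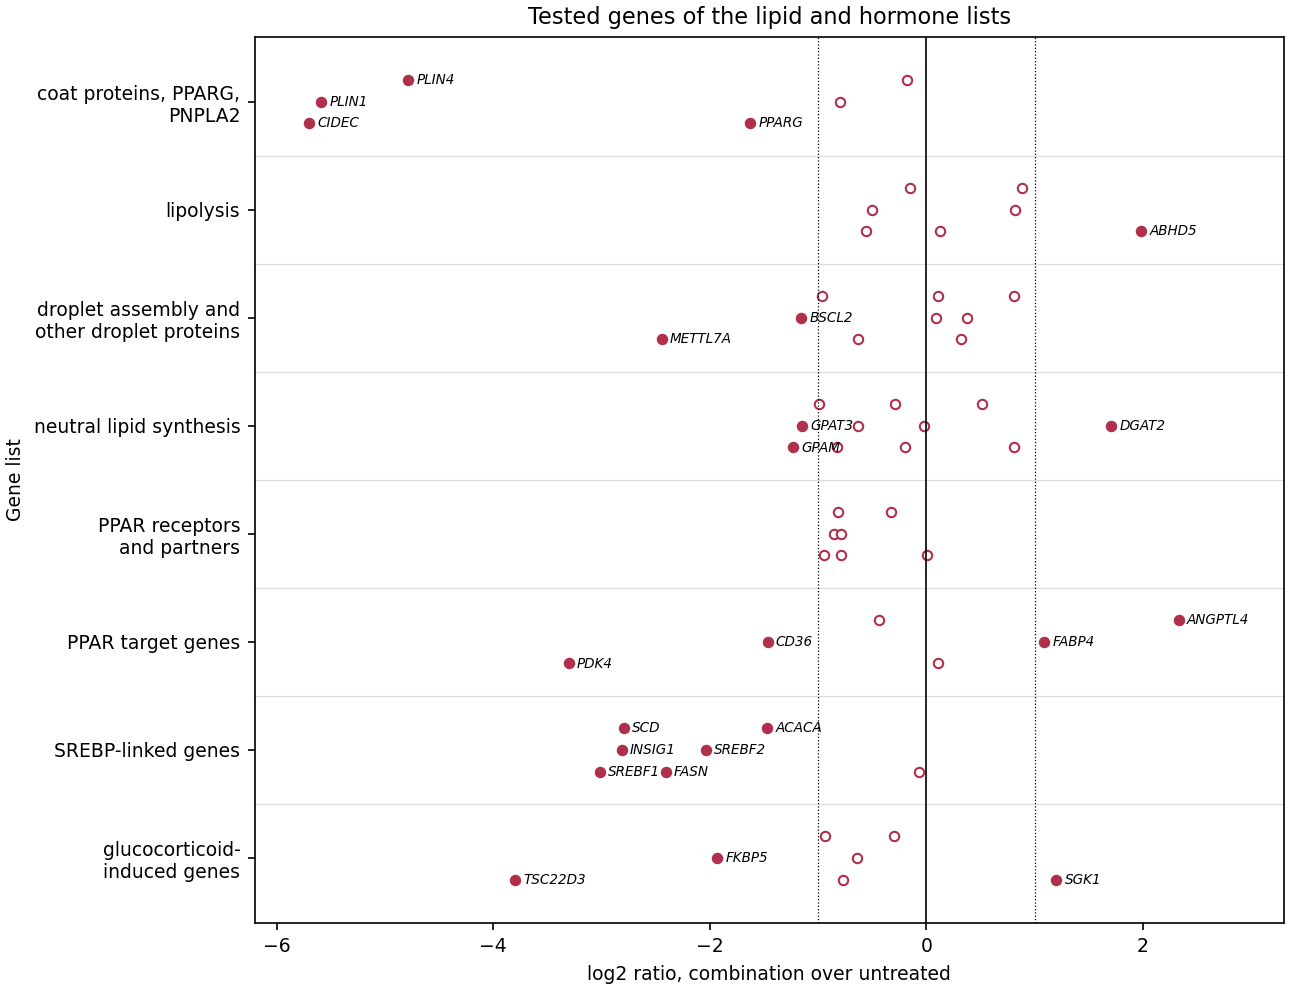
Log2 ratio of combination to untreated (horizontal axis) of every tested member and of every tested gene on the 7 other lists (vertical axis); each point is 1 gene in single libraries, filled and named where called, open where not, spread vertically for legibility, and dotted lines mark 2-fold. CIDEC (-5.70), PLIN1 (-5.59) and PLIN4 (-4.78) lie lower than every gene on the other lists, the lowest of which is TSC22D3 (-3.80), and ABHD5 (1.99) and ANGPTL4 (2.33) lie highest.

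The genes whose pattern was most like that of PLIN4, PPARG and CIDEC were sought among 11234 genes with a mean of at least 5 CPM, by the distance between log2 levels centred over the 4 libraries. Nearest to PLIN4 were PC, the mitochondrial pyruvate carboxylase, at a distance of 0.62, MYBPC1, a myosin-binding protein of muscle, at 0.65, and MLXIPL, which encodes the glucose-sensing factor ChREBP, at 0.67. ZNF467 (0.82) and IFITM10 (0.88) followed. PC was at 318.7 CPM untreated, 137.4 with palbociclib, 47.2 with indisulam and 16.0 with the combination, and MLXIPL at 64.3, 34.8, 16.8 and 4.11 CPM, both in the same order as PLIN4.

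Nearest to CIDEC were PC (1.37), AOC3 (1.37), LAPTM5 (1.53), GLUL (1.54) and PLIN4 itself (1.57). AOC3, an amine oxidase of fat and vascular tissue, was at 141.9 CPM untreated, 12.3 with palbociclib, 13.4 with indisulam and 6.89 with the combination, and GLUL, glutamine synthetase, at 4499 CPM, 1209, 686.7 and 387.8. CIDEC in turn ranked 25th for PLIN4. For PPARG the nearest were CXXC4 (0.11), EFEMP2 (0.13), CLCN6 (0.19), C1QL1 (0.22) and MTMR11 (0.22). CXXC4 was at 11.2 CPM untreated, 3.86 with palbociclib, 8.32 with indisulam and 3.48 with the combination. Neither PLIN4 nor CIDEC was near PPARG on this measure, and PPARG ranked 1140th for PLIN4. With 4 libraries a short distance says only that the levels ran alike in these samples.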

How the data were processed

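RNA was sequenced from SUM159 cells in 4 conditions with 1 library each. The authors deposited raw counts, 1 value for each Ensembl gene, made with TopHat2 2.1 and HTSeq on GRCh38 per the submitters' processing notes; roles, the annotation release and the strand setting are not given in the sources used here. HTSeq-style tallies of reads outside genes (0.615% to 0.694%), in several genes (2.41% to 2.63%) or at several places (6.46% to 6.84% of all reads tallied) were kept apart. Since such reads were not counted, genes with near-identical copies or overlaps are undercounted.

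Counts were scaled to the total gene counts, a pseudocount of 1 was added, and log2 ratios were given 95% Poisson intervals. Genes with a mean of at least 1 CPM were tested, and a call needed 2-fold and an interval that excluded 0. Depth was 12555908 to 16712174 reads in genes. With 1 library per group no p-value was computed. The departure of the combination from the sum of the single drugs includes noise from all 4 libraries as well as drug interaction. Its robust spread over genes of like level, divided by the square root of 2, was taken as an upper bound on the spread of 1 log2 ratio between libraries. This bound is for a typical gene and holds only where the errors of the 4 libraries are independent, which could not be checked. Positions are from GENCODE release 44, and promoters from RefSeq on GRCh38.p14, which matched 10 of 10 members. Of the genes first listed, 2 are not reported here and were left out of the list counts. The members and lists were chosen with earlier results of these data known. Named are all members, the 5 nearest patterns of PLIN4, CIDEC and PPARG, and list genes called in at least 2 of the 5 comparisons. ABHD5, LIPE, HILPDA, PPARA, PPARD and RXRA were named whatever their values. MGLL, PPARGC1A, DGAT1, HMGCS1 and NR3C1 are given outside this rule. SOAT1, SGK1 and FITM2, with 1 call each, are given without values. Python 3.11.15, R 4.3.3 and edgeR 4.0.16 (TMM and upper-quartile factors only) were used, and scripts were tested on simulated data.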

Additional observations from a re-analysis of the deposited data

How the results depend on the processing

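The number of members called in each of the 5 comparisons was recomputed with TMM, upper-quartile and median-of-ratios factors, with a filter of 5 CPM or none, with a pseudocount of 5, with exact intervals and with a 1.5-fold threshold. Of these 40 values, 39 stayed within 1.5 times the value reported. The exception was palbociclib against untreated, where a 1.5-fold threshold gave 5 members lower in place of 3, by adding PLIN4 and PNPLA2. With the 5 CPM filter PLIN1 was not tested, and without a filter PLIN5 was called lower in the 3 comparisons of the combination. Of 174 single values of members, 4 moved by more than their error. These were the combination ratio of PLIN1, which was -4.05 with a pseudocount of 5, and the PLIN3 ratios of combination to untreated with TMM (-0.27) and to palbociclib with TMM (-0.04) and median-of-ratios factors (-0.02). On the other lists, TMM factors added FITM2, DGAT1, PPARGC1A and PER1 to the genes lower with the combination against untreated. The scaling factors moved the median of all genes by between -0.10 and 0.03 on the log2 scale. No paired analysis was possible because each group held 1 library. Few reads limited PLIN1, PLIN2, PLIN5, CIDEB and G0S2, and variation between cultures could not be measured.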
